A study of Homo sapiens with 9 samples.

Results

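The 10 genes described here form the switch that admits a cell to S phase. CCND1, CCND2 and CCND3 encode the D-type cyclins, CDK4 and CDK6 the kinases these cyclins activate, CDKN1A, CDKN1B and CDKN1C the CIP/KIP inhibitors, CDKN2B an INK4 inhibitor, and RB1 the retinoblastoma protein. They were picked by gene name from the deposited transcript counts, with the transcript of highest total count over 9 libraries standing for each gene. The 10 genes held 20 of 39276 transcript rows in a table of 20878 genes. All 10 passed the filter on low counts, which left 14255 genes for testing.

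D-type cyclins accumulate when growth signals reach a cell, bind CDK4 or CDK6, and the complexes phosphorylate the retinoblastoma protein, which then releases the E2F factors that switch on S phase genes. INK4 inhibitors bind CDK4 and CDK6 themselves, whereas CIP/KIP inhibitors bind a wider range of cyclin and kinase complexes. In intestinal epithelium this switch lies downstream of Wnt signalling: the APC protein holds together the complex that sends beta-catenin for degradation, CCND1 is often listed among the genes that beta-catenin activates, and the transcription factor MYC is known to activate CDK4 and to repress CDKN1A and CDKN2B.

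Polyadenylated RNA was sequenced from SW480, a human colorectal cancer cell line with defective APC, and from 2 lines derived from it, with 3 libraries in each of 3 groups. APC denotes line D2.15, which carries the construct pEF-mycAPC, a myc-tagged APC in the pEF vector. CONTROL denotes line R38.7, which carries pEF without an insert, and SW480 denotes the parental cells. All lines were passaged 3 times in the same serum-containing medium with hydrocortisone and insulin and were harvested 72 h after plating. Selection with G418 was applied to APC and CONTROL cells and not to SW480 cells. Fewer cells were seeded for APC, at 2 for every 3.35 on the CONTROL and SW480 plates. Each group is 1 line grown on parallel plates, so p-values measure the spread between plates, and the effect of a construct cannot be told apart from other differences between lines or from seeding density.

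Libraries held 16456738 to 19358025 counts over genes, and replicates of a group correlated at 0.9948 to 0.9962 across genes, which are not independent replicates. APC transcript itself stood at 2721, 2519 and 2390 counts in APC libraries, 896, 753 and 951 in CONTROL libraries and 866, 926 and 959 in SW480 libraries. The APC libraries lay above all others, as their label states, and the counts do not separate the construct from the cells' own gene. AXIN2, a feedback target of beta-catenin, averaged 86.0 ± 3.36 CPM in APC, 571 ± 5.43 CPM in CONTROL and 748 ± 22.1 CPM in SW480 (SD, n = 3 each), where CPM is the count scaled to library size. The epithelial keratins KRT8 and KRT18 were abundant in every group, at group means of 2160 to 2971 CPM. Of 9 fixed markers of intestinal and simple epithelium, KRT20 and CDX1 were at or near 0 and were not tested, and of the other 7, 3 were higher and 2 lower in APC in both comparisons. The higher ones were EPCAM, an epithelial surface protein (382 CPM in APC, 42.4 CPM in CONTROL and 49.4 CPM in SW480), the epithelial cadherin gene CDH1 and VIL1, which encodes villin (4.62 CPM in APC, 0.414 CPM in CONTROL and 0.304 CPM in SW480). The lower ones were KRT18 and the intestinal factor gene CDX2, at 14.9 CPM in APC, 24.7 CPM in CONTROL and 27.1 CPM in SW480. Markers of other cell types were low: the summed level of 8 leukocyte markers was 38.4 to 40.5 CPM in APC, 13.4 to 17.6 CPM in CONTROL and 21.6 to 22.9 CPM in SW480, mostly from CORO1A, and the defining marker PTPRC was listed at 0 RPKM. Their part in the results was not tested. In bulk RNA, fewer cells expressing a gene and less RNA per cell cannot be told apart.

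All 10 genes differed between APC and CONTROL, the line that the study used to account for changes not specific to APC. CCND2 and CDK6 rose 18.3-fold and 2.59-fold in APC, and CDKN2B and RB1 rose by less than 1.3-fold each. CDKN1C, CCND1 and CDK4 fell 5.25-fold, 2.68-fold and 1.63-fold in APC, and CDKN1A, CCND3 and CDKN1B fell by smaller amounts. So 4 genes were called higher and 6 lower, a call being an adjusted p under 0.05 in edgeR's quasi-likelihood test after Benjamini-Hochberg correction over all genes. Calls were common in this comparison: 70.2% of all tested genes were called, 34.8% higher and 35.4% lower, so the count of 10 does not set these genes apart and their sizes are read instead. The libraries of APC and CONTROL did not overlap for 10 of the 10 genes and for 73.4% of all tested genes. The median log2 fold change was −0.22 over the 10 genes and −0.0060 over all genes tested. In size, 2.23% of tested genes changed at least as much as CCND2, 6.55% as much as CDKN1C, 12.4% as much as CCND1 and 13.1% as much as CDK6, but 70.8% changed at least as much as CDKN1B.

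Against parental SW480, 8 of the 10 genes were called in APC, 3 higher and 5 lower, where 72.5% of all tested genes were called, 35.6% higher and 36.9% lower. CCND2 and CDK6 were again the genes with large increases, at 23.9-fold and 2.59-fold, and CDKN1C, CCND1 and CDKN1A fell 9.54-fold, 3.39-fold and 1.71-fold. CDKN2B and RB1 did not pass the test. The libraries of APC and SW480 did not overlap for 8 of the 10, and for 73.1% of all tested genes. In CONTROL against SW480, which shows how the vector line differed from its parent without the APC insert, 8 genes were called, 3 higher and 5 lower, against 50% of all tested genes, 25.3% higher and 24.7% lower, and 7 of the 10 genes had no overlap of libraries, against 56.6% of all tested genes. The median log2 fold changes of the 10 genes were −0.11 for APC against SW480 and −0.14 for CONTROL against SW480, with all-gene medians of −0.013 and −0.0059. The 3 comparisons share libraries and are not independent of each other. A test against a minimum fold of 1.5 left 2 higher and 3 lower genes in each comparison of APC, and 0 in CONTROL against SW480: CCND2, CDK6, CCND1 and CDKN1C passed in both comparisons of APC, with CDK4 against CONTROL and CDKN1A against SW480.

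**Figure D1:**
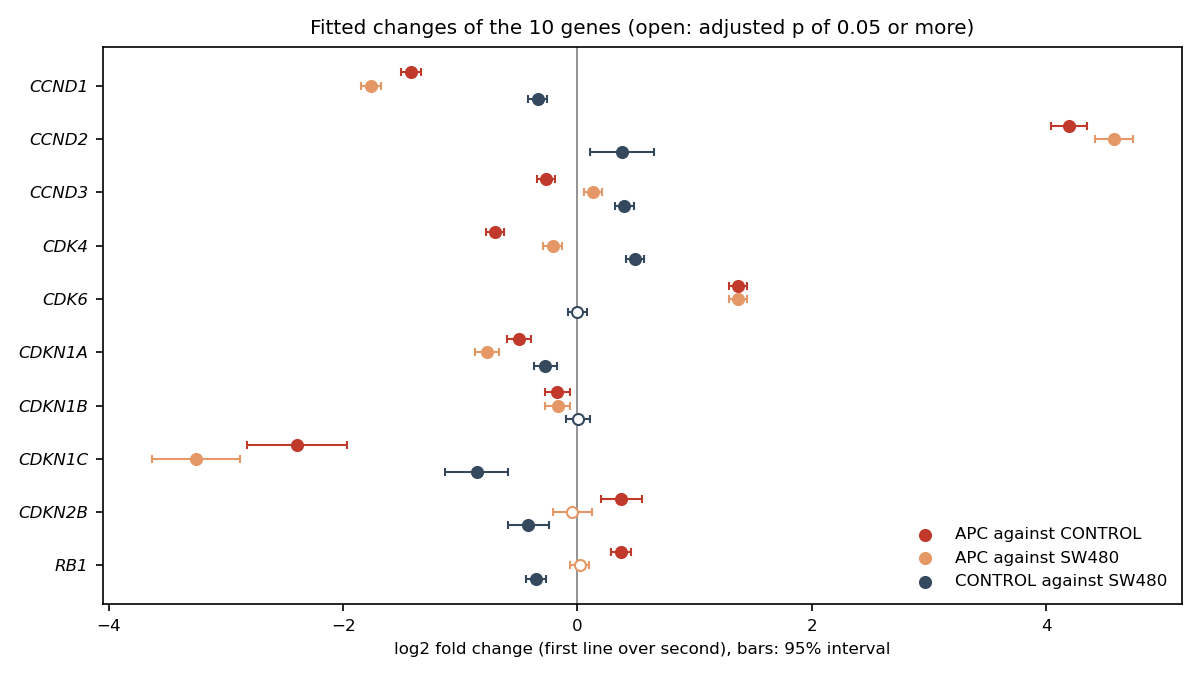
Fitted log2 fold change (horizontal axis) of each of the 10 genes (rows) in the 3 comparisons, first-named line over second, with bars for the 95% interval and open points where the adjusted p was 0.05 or more. CCND2 lies at 4.19 and 4.58 in the comparisons of APC and CDKN1C at −2.39 and −3.25, while most other points lie within 1 unit of 0.

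The plot of fitted changes shows the 3 comparisons side by side, and the plot of levels by library shows the values behind them. For CCND1, CDKN1A and CDKN1C the CONTROL libraries lay between those of APC and SW480. For CCND2 and CDK6 the CONTROL and SW480 libraries lay near each other and APC stood apart, and for CDKN1B APC lay just below both. For CCND3 and CDK4 the CONTROL libraries were the highest, and for CDKN2B and RB1 they were the lowest.

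**Figure D2:**
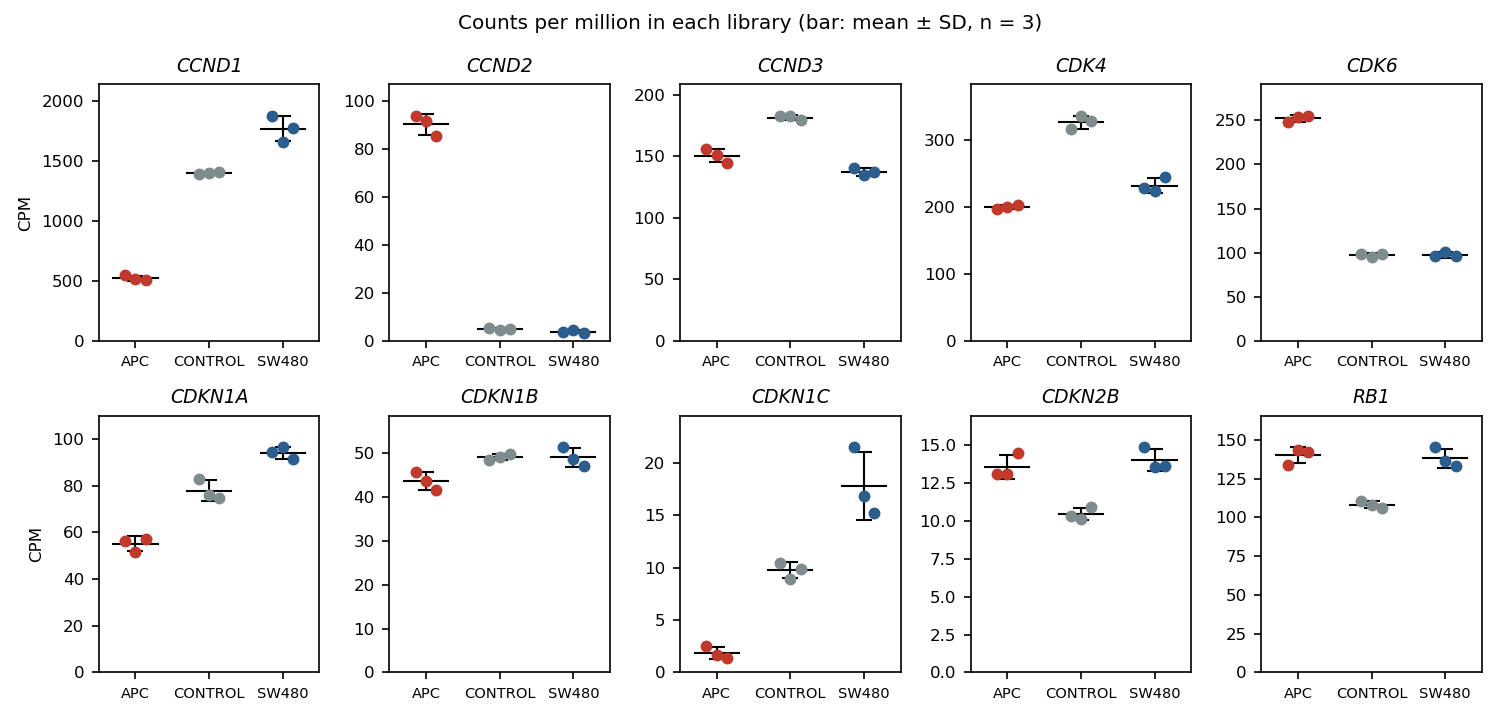
CPM of each gene (vertical axes from 0, each with its own scale) in the 3 APC, 3 CONTROL and 3 SW480 libraries, with points for libraries and bars for the mean ± SD of 3. APC libraries of CCND2 sit at 85.6 to 93.8 CPM above all others at 3.28 to 5.21 CPM, and those of CDKN1C at 1.40 to 2.53 CPM below all others at 8.97 to 21.5 CPM.

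CCND1 encodes cyclin D1, the D-type cyclin most often overproduced in epithelial cancers. It was measured at 548, 515 and 508 CPM in APC libraries, 1398, 1401 and 1407 CPM in CONTROL libraries and 1879, 1664 and 1777 CPM in SW480 libraries. The 3 groups did not overlap, with APC lowest and SW480 highest. Its log2 fold change was −1.42 ± 0.04 (SE) for APC against CONTROL (adjusted p = 3.62e-25) and −1.76 ± 0.04 for APC against SW480 (adjusted p = 8.99e-28). The vector line alone was also lower than its parent, by −0.34 ± 0.04 on the log2 scale (adjusted p = 2.17e-08). The fall against CONTROL was thus the smaller of the 2 falls, by the 1.26-fold difference between CONTROL and SW480.

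CCND2 encodes cyclin D2, a D-type cyclin best known from ovarian granulosa cells and B lymphocytes. Its counts were 1707, 1583 and 1464 in APC libraries, 97, 73 and 97 in CONTROL libraries and 66, 84 and 61 in SW480 libraries. The APC libraries lay far above all others, and the CONTROL and SW480 libraries overlapped. In CPM the gene averaged 90.3 ± 4.28 in APC, 4.91 ± 0.379 in CONTROL and 3.78 ± 0.642 in SW480 (SD, n = 3 each). The log2 fold change was 4.19 ± 0.08 for APC against CONTROL (adjusted p = 3.25e-31) and 4.58 ± 0.08 for APC against SW480 (adjusted p = 7.74e-32). CONTROL exceeded SW480 by 0.38 ± 0.13 (adjusted p = 0.0171), which was a weak call: it was lost without CONTROL replicate 1 (adjusted p = 0.0684), CONTROL replicate 3 (0.0536), SW480 replicate 1 (0.0616) or SW480 replicate 3 (0.101).

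CCND3 encodes cyclin D3, which differed less between the lines. It stood at 156, 151 and 145 CPM in APC libraries, 183, 182 and 179 CPM in CONTROL libraries and 141, 134 and 137 CPM in SW480 libraries. No groups overlapped, and CONTROL was the highest. APC was therefore lower than CONTROL (log2 fold change −0.27 ± 0.04, adjusted p = 1.49e-07) and higher than SW480 (0.13 ± 0.04, adjusted p = 0.00282). The CONTROL excess over SW480, 0.40 ± 0.04 (adjusted p = 1.25e-10), was larger than both.

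The make-up of the D-type cyclin transcripts was compared on the RPKM scale, the authors' value per transcript length and library size, which allows levels of different genes to be set side by side. The 3 cyclins summed to 188, 183 and 178 RPKM in APC libraries, 368, 365 and 366 RPKM in CONTROL libraries and 455, 408 and 427 RPKM in SW480 libraries. The sum was lowest in APC, with no overlap between the groups. CCND1 made up 58.3% ± 0.454 of it in APC, 78.6% ± 0.234 in CONTROL and 85.9% ± 0.478 in SW480 (SD, n = 3 each). CCND3, which itself changed little, made up 35.0% ± 0.341 in APC, 21.2% ± 0.236 in CONTROL and 13.9% ± 0.454 in SW480. CCND2 came to 6.62% ± 0.130 in APC, against 0.181% ± 0.0140 in CONTROL and 0.121% ± 0.0266 in SW480. So even after its large rise CCND2 was the scarcest D-type cyclin transcript in APC cells, at 12.1 ± 0.485 RPKM beside 107 ± 3.30 RPKM for CCND1 and 64.1 ± 1.79 RPKM for CCND3. These shares depend on transcript length: from CPM, without division by length, CCND1 came to 68.5% in APC, 88.3% in CONTROL and 92.6% in SW480, CCND3 to 19.7% in APC, 11.4% in CONTROL and 7.18% in SW480, and CCND2 to 11.8% in APC, 0.309% in CONTROL and 0.199% in SW480. With 3 libraries a group the smallest two-sided p of an exact permutation test is 0.1, so these sums and shares carry no test.

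**Figure D3:**
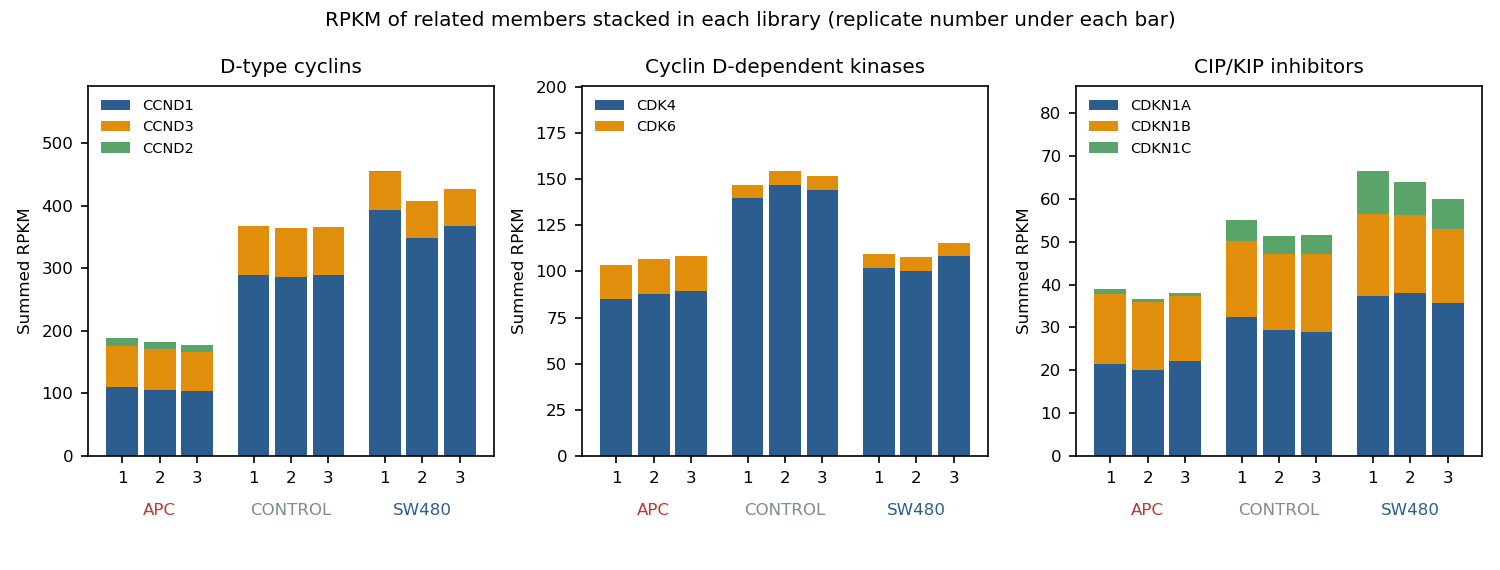
Summed RPKM (vertical axes) of the D-type cyclins, of CDK4 and CDK6 and of the 3 CIP/KIP inhibitors in each library, with 1 stacked bar per library and its replicate number below it. The cyclin bars reach 178 to 188 RPKM in APC, 365 to 368 RPKM in CONTROL and 408 to 455 RPKM in SW480, and CCND2 is visible in the APC bars.

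CDK4 and CDK6 encode the kinases that D-type cyclins activate, and they moved in opposite directions in APC. CDK4 was measured at 197, 200 and 203 CPM in APC libraries, 316, 336 and 328 CPM in CONTROL libraries and 228, 223 and 245 CPM in SW480 libraries. The groups did not overlap, and the CONTROL libraries stood above both others. CDK4 was lower in APC than in CONTROL by −0.71 ± 0.04 on the log2 scale (adjusted p = 1.78e-17) and lower than in SW480 by −0.21 ± 0.04 (adjusted p = 1.24e-05). CONTROL exceeded SW480 by 0.49 ± 0.04 (adjusted p = 1.23e-12), so most of the fall against CONTROL was the distance between CONTROL and its parent.

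CDK6 gave 248, 254 and 255 CPM in APC libraries, 98.0, 95.5 and 98.8 CPM in CONTROL libraries and 95.7, 101 and 95.7 CPM in SW480 libraries. The APC libraries lay far above the rest, and CONTROL and SW480 overlapped. The log2 fold change was 1.37 ± 0.04 against CONTROL (adjusted p = 6.2e-26) and 1.37 ± 0.04 against SW480 (adjusted p = 5.49e-26). CONTROL and SW480 differed by 0.0004 ± 0.04, with a 95% interval of −0.08 to 0.08 (adjusted p = 0.995).

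On the RPKM scale CDK4 remained the more abundant kinase transcript in every library. The ratio of CDK4 to CDK6 was 4.66, 4.60 and 4.67 in APC libraries, 18.9, 20.6 and 19.4 in CONTROL libraries and 13.9, 12.9 and 15.0 in SW480 libraries. The ratio was lowest in APC and highest in CONTROL, with no overlap. The 2 kinases summed to 106 ± 2.57 RPKM in APC, 151 ± 3.68 RPKM in CONTROL and 111 ± 4.19 RPKM in SW480. The level of this ratio depends on transcript length: the annotated CDK6 transcript is 11717 bases long and that of CDK4 is 2002, and without division by length the ratio was 0.793 in APC, 3.35 in CONTROL and 2.38 in SW480.

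Promoter windows are shown for both kinases, with matches to the E-box CACGTG, which the dimer of MYC and MAX binds. MYC averaged 283 ± 2.76 CPM in APC, 147 ± 5.62 CPM in CONTROL and 118 ± 2.38 CPM in SW480 (SD, n = 3 each). CDK4, a known MYC target, was lowest in APC and CDK6 highest. Whether MYC acts on either gene in these cells was not tested. RefSeq windows of 300 bases (GRCh38.p14), from 250 before to 50 after a transcription start, were used for 7 of the 10 genes, all but CCND1, CCND2 and CDKN1C, with 10 windows in all. The RB1 window lies at a start within the gene. The E-box occurred 3 times in the CDK4 window, with first bases at positions −216, −196 and −101 from the start, and once in 1 of the 2 CDK6 windows, at position 31. It occurred in no window of CCND3, CDKN1A, CDKN1B, CDKN2B or RB1. Among all 35116 windows 7.26% held the motif and 0.094% held it 3 or more times. The window of CDK4 is chr12:57752261-57752560 and the CDK6 window with the motif is chr7:92836524-92836823, both printed from the minus strand 5′ to 3′ with the E-box in capitals.
CDK4: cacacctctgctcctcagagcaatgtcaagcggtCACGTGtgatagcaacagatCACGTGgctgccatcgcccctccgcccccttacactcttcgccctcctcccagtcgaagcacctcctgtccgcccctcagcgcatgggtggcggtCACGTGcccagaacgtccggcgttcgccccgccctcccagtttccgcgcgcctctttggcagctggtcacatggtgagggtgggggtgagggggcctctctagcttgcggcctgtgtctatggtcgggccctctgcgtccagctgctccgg
CDK6: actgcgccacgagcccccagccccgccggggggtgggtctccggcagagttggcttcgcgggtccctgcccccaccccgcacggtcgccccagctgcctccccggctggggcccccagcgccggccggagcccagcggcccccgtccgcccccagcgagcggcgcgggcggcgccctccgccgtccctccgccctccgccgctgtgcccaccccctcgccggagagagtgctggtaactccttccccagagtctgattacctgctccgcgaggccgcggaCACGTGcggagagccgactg
The motifs CTTTGAA and CTTTGAT of TCF/LEF factors, which carry beta-catenin to DNA, were in none of the 10 windows and in 6.86% of all windows. The E2F motifs TTTCGCGC, TTTGGCGC, TTTCCCGC and TTTGCCGC were likewise in none of the 10 and in 3.31% of all. Both strands were searched, and CACGTG reads the same on each. A match or its absence describes the letters of the window and not the binding of a factor.

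CDKN1A encodes p21, the CIP/KIP inhibitor known for arresting cells under stress. It was measured at 56.5, 51.5 and 57.3 CPM in APC libraries, 82.9, 75.7 and 74.6 CPM in CONTROL libraries and 94.5, 96.3 and 91.2 CPM in SW480 libraries. The groups did not overlap and APC was the lowest. The log2 fold change was −0.50 ± 0.05 for APC against CONTROL (adjusted p = 1.41e-10), −0.77 ± 0.05 for APC against SW480 (adjusted p = 1.32e-15) and −0.27 ± 0.05 for CONTROL against SW480 (adjusted p = 1.43e-05).

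CDKN1B encodes p27, whose amount is known to be set largely by protein turnover. Its level was 45.8, 43.6 and 41.6 CPM in APC libraries, 48.5, 49.1 and 49.8 CPM in CONTROL libraries and 51.3, 48.7 and 47.2 CPM in SW480 libraries. APC libraries lay just below the others, which overlapped each other. The falls in APC were small, at −0.17 ± 0.05 against CONTROL (adjusted p = 0.00431) and −0.17 ± 0.05 against SW480 (adjusted p = 0.00472). Both calls were lost without APC replicate 3, with adjusted p-values of 0.0603 and 0.0585. CONTROL and SW480 differed by 0.003 ± 0.05, with a 95% interval of −0.10 to 0.11 (adjusted p = 0.964).

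CDKN1C encodes p57, an inhibitor expressed from the maternal copy of an imprinted region. Its counts were 46, 28 and 24 in APC libraries, 195, 146 and 191 in CONTROL libraries and 399, 314 and 283 in SW480 libraries. The groups did not overlap, and the order was APC, CONTROL and SW480 from low to high. In CPM the gene averaged 1.85 ± 0.598 in APC, 9.79 ± 0.760 in CONTROL and 17.8 ± 3.26 in SW480 (SD, n = 3 each). It was lower in APC by −2.39 ± 0.20 on the log2 scale against CONTROL (adjusted p = 7.65e-09) and by −3.25 ± 0.18 against SW480 (adjusted p = 1.7e-11). CONTROL was lower than SW480 by −0.86 ± 0.13 (adjusted p = 2.19e-05), a fold of 1.82, and 6.87% of tested genes changed at least as much in that comparison.

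The 3 CIP/KIP transcripts summed to 37.9 ± 1.24 RPKM in APC, 52.6 ± 2.03 RPKM in CONTROL and 63.5 ± 3.25 RPKM in SW480. CDKN1A made up 56.0% ± 2.11 in APC, 57.4% ± 1.42 in CONTROL and 58.4% ± 1.87 in SW480, ranges that overlapped. The CDKN1C share was 2.20% ± 0.629 in APC, 8.49% ± 0.458 in CONTROL and 13.0% ± 1.82 in SW480. CDKN1B made up the remainder, at 41.8% ± 1.79 in APC, 34.2% ± 1.53 in CONTROL and 28.6% ± 0.332 in SW480, although its own level differed by no more than 0.17 on the log2 scale.

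CDKN2B encodes p15, an INK4 inhibitor known to be induced by TGF-beta. It gave 13.1, 13.1 and 14.5 CPM in APC libraries, 10.4, 10.1 and 10.9 CPM in CONTROL libraries and 14.9, 13.6 and 13.6 CPM in SW480 libraries. CONTROL was the lowest group, and APC overlapped SW480. APC exceeded CONTROL by 0.37 ± 0.09 on the log2 scale (adjusted p = 0.000287), and CONTROL was below SW480 by −0.42 ± 0.09 (adjusted p = 0.000112). APC and SW480 differed by −0.05 ± 0.08, with a 95% interval of −0.21 to 0.12 (adjusted p = 0.623). The antisense gene CDKN2B-AS1 had 36, 27 and 34 counts in APC libraries, 27, 15 and 27 in CONTROL libraries and 34, 25 and 31 in SW480 libraries. How the counting treated strand is not given in the sources used here, so reads of CDKN2B and of its antisense partner may not be separated.

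RB1 encodes the substrate of the cyclin D kinases. It was measured at 134, 144 and 142 CPM in APC libraries, 111, 108 and 106 CPM in CONTROL libraries and 145, 136 and 133 CPM in SW480 libraries. CONTROL again stood lowest, and APC overlapped SW480. The log2 fold change was 0.37 ± 0.04 for APC against CONTROL (adjusted p = 1.42e-09) and −0.35 ± 0.04 for CONTROL against SW480 (adjusted p = 1.55e-08). Between APC and SW480 it was 0.02 ± 0.04, with a 95% interval of −0.06 to 0.10 (adjusted p = 0.687). RB1 and CDKN2B had the most similar profiles of any pair among the 10 genes, with a root mean square difference of 0.061 in log2 CPM over the 9 libraries after centring each gene on its mean.

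Ranked per length within a group, CCND1, CDK4 and CCND3 were the 3 highest of the 10 genes in every line. In APC the order from there was RB1, CDKN1A, CDK6, CDKN1B, CCND2, CDKN2B and CDKN1C, and neighbours in that order did not overlap in RPKM. In CONTROL the order from there was CDKN1A, RB1, CDKN1B, CDK6, CDKN1C, CDKN2B and CCND2, again without overlap. SW480 cells had the order CDKN1A, RB1, CDKN1B, CDKN1C, CDK6, CDKN2B and CCND2, and there CDKN1C and CDK6 overlapped. CCND2 thus ranked in place 8 in APC and in place 10, the last, in CONTROL and SW480, while CDKN1C was last in APC.

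Among 9853 genes, those averaging at least 10 CPM and the 10 themselves, the profile most like that of CCND1 belonged to B3GAT1, a glucuronyltransferase gene, and next to RHOB, which encodes a small GTPase. Their root mean square differences from CCND1 were 0.0723 and 0.0724, where CCND1 itself varied by 0.764 around its mean. CCND2 was most like CLDN7, a tight junction claudin gene, at 0.145, and TNFAIP3, an inhibitor of NF-kappaB signalling, at 0.191, with 2.07 for its own variation. CDK6 was most like PERP, a desmosome gene, at 0.0229, and TNS3, a focal adhesion tensin gene, at 0.0373, with 0.647 for its own variation. PERP averaged 187 ± 2.73 CPM in APC, 71.6 ± 1.43 CPM in CONTROL and 72.3 ± 1.56 CPM in SW480, with log2 fold changes of 1.38 ± 0.04 for APC against CONTROL and 1.37 ± 0.04 for APC against SW480. CDK4 was most like EIF4B, a translation initiation factor gene, at 0.0394, and the mitochondrial ribosomal protein gene MRPL45 at 0.0465. The nearest profiles to CDKN1C, HIST2H2AA3 and HIST2H2AA4 at 0.247, are histone copies with identical counts whose reads cannot be assigned to either. The other nearest genes were MTHFD1L and AHCYL2 for CCND3, PLCG1 and S100PBP for CDKN1A, TOLLIP and NFU1 for CDKN1B, RNF145 and SMYD4 for CDKN2B, and WRAP53 and STAU1 for RB1. With 3 groups of 3 libraries such likeness reflects little more than the order and distance of 3 group means.

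Genes next to the 10 on the chromosome were compared with them, to see whether a change was shared along the chromosome. In APC against CONTROL, all 6 tested neighbours of RB1, 3 on each side in RefSeq order, were higher, with log2 fold changes of 0.40 to 0.92 and a median of 0.55, and RB1 at 0.37 lay just below them. In CONTROL against SW480 the 6 had a median of −0.25, beside −0.35 for RB1. The 6 neighbours of CDK4 were all lower in APC than in CONTROL, from −1.17 to −0.43 with a median of −0.66, beside −0.71 for CDK4. In this comparison, then, both genes changed in the same direction as all 6 genes around them. CDK4 lay close to the median of its neighbours, and RB1 lay below all 6 of its own. In the other comparisons the shared change held only in part. Against SW480 all 6 neighbours of RB1 were called higher in APC, at 0.20 to 0.55 with a median of 0.31, beside 0.02 for RB1, which was not called, and the CDK4 neighbours had a median of −0.50, beside −0.21 for CDK4. In CONTROL against SW480 CDK4 stood at 0.49 beside a neighbour median of 0.21, with 2 of the 6 called. The cause was not tested.

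In APC against CONTROL the rise of CCND2 and the falls of CCND1 and CDKN1C were not shared by most of the genes around them. CCND2 had neighbours with log2 fold changes of −0.93 to 0.20 in that comparison, those of CCND1 had a median of 0.018, and 2 of the 6 around CDKN1C were called. Other neighbour medians in that comparison were 0.39 around CDKN2B, beside 0.37 for the gene itself, −0.24 around CDKN1B, beside −0.17, and −0.22 around CDKN1A, beside −0.50. The neighbours behind these medians ranged from −0.15 to 6.30 for CDKN2B, −0.69 to 0.72 for CDKN1B and −1.32 to −0.05 for CDKN1A. Around CCND1, however, all 6 neighbours had values below 0 against SW480, with 5 of them called in APC (median −0.57, beside −1.76 for CCND1) and 5 in CONTROL (median −0.64, beside −0.34). The growth factor gene FGF19 was lower than in SW480 by −2.22 in APC (adjusted p = 2.81e-28) and by −1.76 in CONTROL (adjusted p = 1.25e-24), and its neighbour FGF3 by −1.88 in APC (adjusted p = 1.59e-21) and by −1.75 in CONTROL (adjusted p = 1.10e-19). In CONTROL against SW480 the others were TPCN2 at −0.40 (adjusted p = 4.75e-06), MYEOV at −0.29 (adjusted p = 2.72e-06), ORAOV1 at −0.20 (adjusted p = 0.00559) and MRGPRF at −0.87, which was not called (adjusted p = 0.0525). Next to CDKN1C, KCNQ1DN had 1, 0 and 1 counts in APC libraries, 28, 15 and 43 in CONTROL libraries and 55, 45 and 39 in SW480 libraries. SLC22A18, on its other side, was lower in APC than in CONTROL by −1.37 (adjusted p = 3.92e-11) and than in SW480 by −1.61 (adjusted p = 3.02e-13), while KCNQ1, PHLDA2 and NAP1L4 did not pass the test in either comparison. For KCNQ1OT1, APC was not called against CONTROL, at −0.08 (adjusted p = 0.141), and was called lower against SW480, at −0.35 (adjusted p = 7.10e-08). Beside CDK6, SAMD9, an antiviral factor gene, had 74, 87 and 78 counts in APC libraries, 10, 6 and 6 in CONTROL libraries and 11, 18 and 18 in SW480 libraries. ELAVL2, the tested gene next to CDKN2B, had 33, 40 and 32 counts in APC libraries, 0, 0 and 1 in CONTROL libraries and 83, 99 and 80 in SW480 libraries. CDKN2B and ELAVL2 were thus both lowest in CONTROL. Of the 6 neighbours of CDKN2B, 3 were called in CONTROL against SW480: ELAVL2 lower, but MTAP at 0.13 and PLAA at 0.22 higher.

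**Figure D4:**
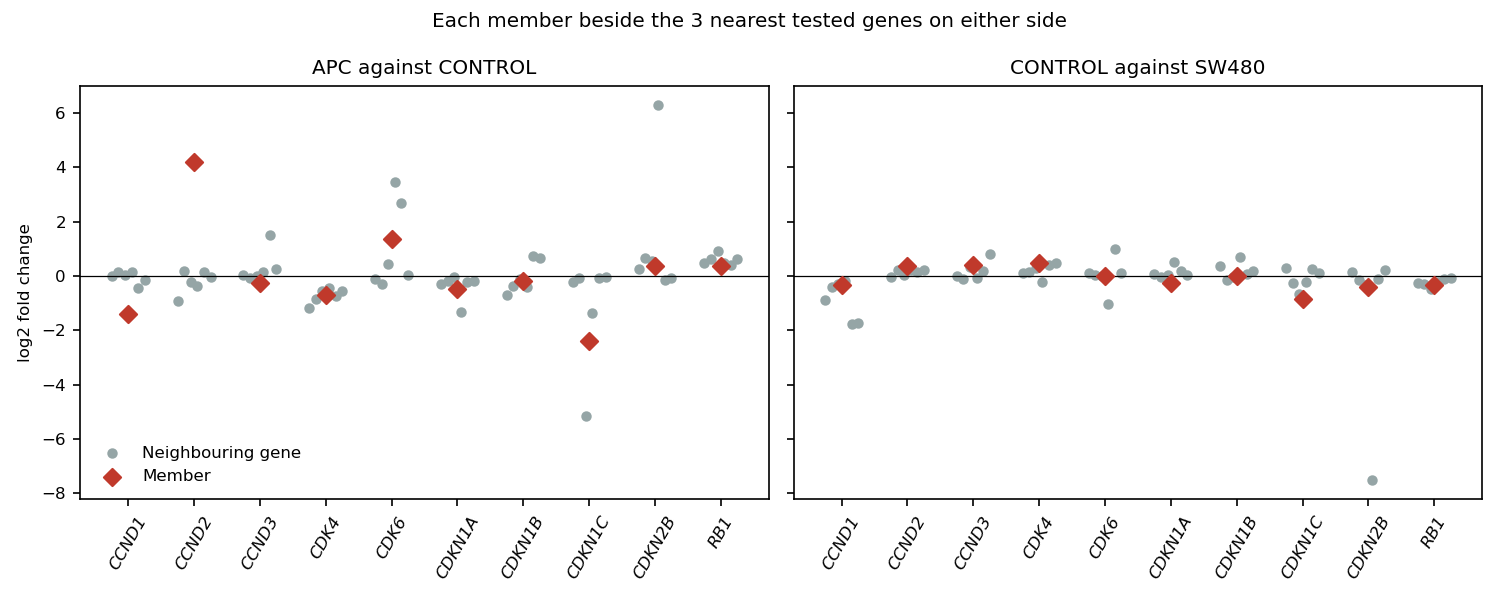
Log2 fold change (vertical axis) of each of the 10 genes (diamonds) and of the 3 nearest tested genes on either side (circles) for APC against CONTROL and CONTROL against SW480. In the first panel CDK4 lies among its neighbours and RB1 just below its own, and CCND2 at 4.19 stands apart from neighbours at −0.93 to 0.20.

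Other genes of the cell cycle entry pathway changed in both directions, and the counts for each list are read against the shares of all tested genes: 34.8% higher and 35.4% lower in APC against CONTROL, and 35.6% higher and 36.9% lower in APC against SW480. Of 16 other cyclins, kinases and activators, 3 were higher and 6 lower in APC against CONTROL (median −0.04), and 3 higher and 5 lower in APC against SW480 (median −0.03). The 6 lower genes were 37.5% of the list, close to the 35.4% of all genes. CDK2, the kinase that acts after CDK4 and CDK6, and CCNE2, a cyclin that binds it, were lower in APC. CDK2 differed by −0.78 ± 0.04 against CONTROL and −0.50 ± 0.04 against SW480, and CCNE2 by −0.75 ± 0.07 against CONTROL and −0.76 ± 0.07 against SW480. CCNA2, the S phase cyclin gene, was higher by 0.40 ± 0.04 against CONTROL and 0.41 ± 0.04 against SW480. All 6 of these differences were called.

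Of 5 other inhibitor genes, 2 were higher and 2 lower in APC against CONTROL and 2 higher and 1 lower in APC against SW480, too few to set against the shares of all genes. CDKN2A rose in APC, to 68.2 ± 4.22 CPM, against 43.1 ± 1.26 CPM in CONTROL and 48.4 ± 5.99 CPM in SW480 (log2 fold change 0.66 ± 0.07 with adjusted p = 3.76e-08 against CONTROL, and 0.50 ± 0.07 with adjusted p = 1.66e-06 against SW480). The gene encodes the INK4 inhibitor p16 and, in another frame, ARF. The values above are those of its transcript of highest total count, with 1303, 1200 and 1086 counts in APC libraries, which is not the p16 transcript. Its transcripts share most of their reads. The p16 transcript had 870, 850 and 814 counts in APC libraries, 609, 496 and 600 in CONTROL libraries and 724, 619 and 606 in SW480 libraries. For p16, too, APC lay above both others, but this transcript was not tested on its own. CDKN2C, encoding the INK4 inhibitor p18, fell in APC by −0.26 ± 0.08 against CONTROL and −0.25 ± 0.07 against SW480. CDKN2D, encoding p19, was called higher against CONTROL, at 0.70 ± 0.12 (adjusted p = 5.34e-06), and was not called against SW480, at 0.07 ± 0.11 (adjusted p = 0.566).

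Of 19 genes of the RB family and E2F factors, 6 were higher and 10 lower in APC against CONTROL (median −0.16), and 3 higher and 14 lower in APC against SW480 (median −0.25). The lower genes were 52.6% of the list against CONTROL and 73.7% against SW480, where 35.4% and 36.9% of all tested genes were lower. CONTROL was the lowest group for the relatives of RB1 too: RBL1 averaged 53.2 ± 2.14 CPM in APC, 43.0 ± 2.43 CPM in CONTROL and 56.8 ± 2.35 CPM in SW480, and RBL2 averaged 67.2 ± 2.08 CPM in APC, 60.7 ± 1.26 CPM in CONTROL and 72.4 ± 3.02 CPM in SW480. E2F1, an activating E2F, was higher in APC than in CONTROL by 0.30 ± 0.05 and lower than in SW480 by −0.26 ± 0.04, and MYBL2, a late cell cycle factor, by 0.70 ± 0.04 against CONTROL and −0.12 ± 0.04 against SW480, all called. The other activating E2F genes were lower in both comparisons, E2F2 by −0.21 ± 0.07 against CONTROL (adjusted p = 0.0114) and −0.37 ± 0.07 against SW480 (adjusted p = 2.05e-05), and E2F3 by −0.34 ± 0.06 against CONTROL (adjusted p = 1.33e-06) and −0.27 ± 0.06 against SW480 (adjusted p = 4.84e-05). The repressor E2F6 and the E2F partner TFDP2 were lower in APC, E2F6 by −0.53 ± 0.05 against CONTROL and −0.47 ± 0.05 against SW480, and TFDP2 by −0.59 ± 0.06 against CONTROL and −0.52 ± 0.06 against SW480.

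Of 26 E2F target genes of S phase entry, 12 were higher and 8 lower in APC against CONTROL (median 0.04), and 11 higher and 7 lower in APC against SW480 (median 0.06). The higher genes were 46.2% of the list against CONTROL and 42.3% against SW480, where 34.8% and 35.6% of all tested genes were higher. TK1, thymidine kinase, rose to 254 ± 2.96 CPM in APC, against 138 ± 3.86 CPM in CONTROL and 134 ± 1.69 CPM in SW480. RFC3 was higher in APC by 0.65 ± 0.05 against CONTROL and 0.48 ± 0.04 against SW480. MCM2 was higher by 0.36 ± 0.04 against CONTROL and 0.18 ± 0.04 against SW480. CDC6, a replication licensing factor, fell by −0.82 ± 0.04 against CONTROL and −0.27 ± 0.04 against SW480, and the nucleotide synthesis genes TYMS and RRM2 fell by −0.50 ± 0.04 and −0.34 ± 0.04 against CONTROL. PCNA, the polymerase clamp, was called higher against CONTROL, at 0.46 ± 0.04, and was not called against SW480, at −0.02 ± 0.04 (adjusted p = 0.628).

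**Figure D5:**
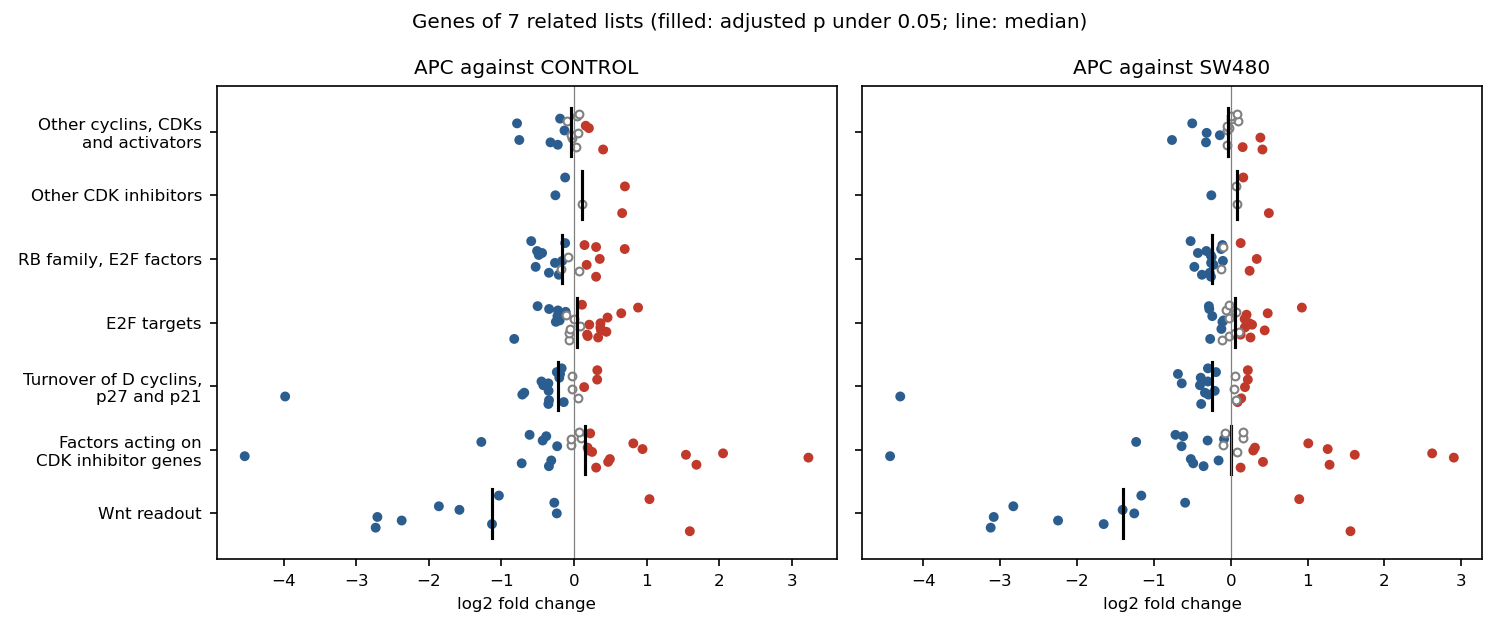
Log2 fold change (horizontal axis) of each tested gene of 7 related gene lists (rows) for APC against CONTROL and APC against SW480, filled where the adjusted p was under 0.05, with a line at the list median. Medians of 6 lists lie between −0.25 and 0.15, and that of the Wnt readout lies at −1.13 and −1.41.

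The plot of related lists also holds genes that act on the 10. Of 20 tested genes for the turnover of D-type cyclins, p27 and p21, 3 were higher and 14 lower in APC against CONTROL (median −0.22), and 5 higher and 12 lower in APC against SW480 (median −0.25). The lower genes were 70% of the list against CONTROL and 60% against SW480, where 35.4% and 36.9% of all tested genes were lower. SKP2, which targets p27 for destruction, was higher in APC by 0.32 ± 0.05 against CONTROL and 0.22 ± 0.05 against SW480. CUL1, the ubiquitin ligase scaffold that works with it, was lower by −0.71 ± 0.04 against CONTROL and −0.29 ± 0.04 against SW480. GSK3B, a kinase that marks cyclin D1 for export and destruction, was lower by −0.20 ± 0.05 against CONTROL and −0.39 ± 0.05 against SW480. GSK3A, also in the list, was higher by 0.32 ± 0.04 against CONTROL and 0.22 ± 0.04 against SW480, both called.

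Of 26 factors known to act on CDK inhibitor genes, 13 were higher and 9 lower in APC against CONTROL (median 0.15), and 10 higher and 11 lower in APC against SW480 (median −0.0010). The higher genes were 50% of the list against CONTROL and 38.5% against SW480, where 34.8% and 35.6% of all tested genes were higher. KLF4, an activator of CDKN1A in gut epithelium, averaged 28.8 ± 0.737 CPM in APC, 6.92 ± 0.199 CPM in CONTROL and 4.67 ± 0.662 CPM in SW480, opposite in order to CDKN1A. The ID factors, which hold back activators of inhibitor genes, diverged: ID1 averaged 24.1 ± 2.38 CPM in APC, 2.55 ± 0.262 CPM in CONTROL and 3.22 ± 0.381 CPM in SW480, and ID2 averaged 15.7 ± 1.28 CPM in APC, 364 ± 13.0 CPM in CONTROL and 338 ± 10.2 CPM in SW480. ID3 was higher in APC like ID1, at 3.13 CPM in APC, 1.09 CPM in CONTROL and 1.02 CPM in SW480. On the TGF-beta route to CDKN2B, SMAD3 was higher in APC by 0.82 ± 0.04 against CONTROL and 1.01 ± 0.04 against SW480, and the receptor gene TGFBR1 was lower by −0.61 ± 0.05 against CONTROL and −0.72 ± 0.05 against SW480. The ligand gene TGFB1 was also called lower, by −0.38 ± 0.14 against CONTROL and −0.62 ± 0.14 against SW480. TGFBR2 was called higher against CONTROL, at 0.22 ± 0.05, and was not called against SW480, at −0.08 ± 0.05. SMAD4, which SW480 is known to lack, had at most 2.42 CPM in any group mean. EZH2, a repressor of the locus that holds CDKN2A and CDKN2B, was lower by −0.72 ± 0.05 against CONTROL and −0.49 ± 0.05 against SW480. BMI1, another factor of this list, went the other way, at 0.31 ± 0.05 against CONTROL and 0.13 ± 0.05 against SW480, both called.

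The Wnt readout moved most of the 7 lists in its median: of 11 tested genes, 2 were higher and 9 lower in APC in each comparison, with medians of −1.13 against CONTROL and −1.41 against SW480. The 2 higher genes were TCF7L2 and APC itself, which the construct carries, so its rise is no readout of the pathway. APC is still counted in the 11 genes and in the medians. The 9 lower genes were 81.8% of the list, where 35.4% of all tested genes were lower against CONTROL and 36.9% against SW480. In CONTROL against SW480, 2 were higher and 7 lower (median −0.32), where 24.7% of all tested genes were lower. CCND1 changed in the same direction as these medians in the 3 comparisons, at −1.42 against CONTROL, −1.76 against SW480 and −0.34 for CONTROL against SW480. MYC went in the opposite direction, at 0.94 against CONTROL, 1.26 against SW480 and 0.32 for CONTROL against SW480. CTNNB1, which encodes beta-catenin, averaged 429 ± 4.72 CPM in APC, 938 ± 20.3 CPM in CONTROL and 1348 ± 52.5 CPM in SW480. This pathway component is 1 of the 9 lower genes, and its log2 fold change of −1.13 is the list median against CONTROL.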

How the data were processed

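The authors deposited raw whole-number read counts for RefSeq transcripts, per the file headers. Their RPKM values, also deposited by the authors, equalled the count divided by transcript length and a factor fixed for each library in 100% of transcripts (relative tolerance 0.0001). Trimmomatic, TopHat, GATK and build hg19 are named per the submitters' processing notes, without versions. For the counter and its use of strand: not given in the sources used here. Reads were counted for every transcript they overlapped, so each gene was represented by its transcript of highest total count. Counts were fitted with edgeR 4.0.16 in R 4.3.3 (TMM, filterByExpr, robust quasi-likelihood), all 9 libraries together, over 14255 genes, with Benjamini-Hochberg adjustment at 0.05. The biological coefficient of variation was 3.56%. CPM were TMM-scaled, intervals were at 95%, and the SE was the log2 fold change over the square root of F. The fit was also run on simulated counts drawn from its own means and spread, with far fewer genes changed than were called here. That run does not check the spread model or the normalization on these data. The 10 genes and the related lists were chosen with earlier results of these data known. Named genes were the 10, fixed genes of each list, those with the smallest adjusted p per list and direction, the 2 nearest profiles of each of the 10, and neighbours in gene order. SAMD9, KCNQ1DN, SLC22A18, ELAVL2, FGF19 and FGF3 were singled out after their values were seen. Of 65 names altered to dates, 62 were repaired by accession. The alternatives tried were DESeq2 1.42.0, RLE factors, an unfiltered table, summed or next transcripts, limma 3.58.1 on log2(RPKM + 1) and log2(RPKM + 0.1), separate fits of 6 libraries, the replicate block, 1.5 as minimum fold, each library left out and, chosen after seeing the data, library size without TMM. Another list is not reported here.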

Additional observations from a re-analysis of the deposited data

How the results depend on the processing

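Of 30 results (10 genes in 3 comparisons), 26 were called. Under 20 alternatives these gave 520 values, of which 497 stayed on their side of the threshold, 23 lost the call and 0 turned direction. A minimum fold of 1.5 took 16 of the 23 calls: it left 3364 called genes in APC against CONTROL, 3501 in APC against SW480 and 668 in CONTROL against SW480, with 2 higher and 3 lower of the 10 genes in each comparison of APC and 0 higher and 0 lower in CONTROL against SW480. The other 7 were CDKN1B without APC replicate 3 in both comparisons of APC, and CCND2 in CONTROL against SW480 without 4 of the libraries or with limma on log2(RPKM + 1), where its adjusted p was 0.0932. That scale also shrank CCND2 in APC to 2.98 against CONTROL and 3.11 against SW480, and CDKN1C to −1.58 and −2.33, since a pseudocount of 1 weighs on low genes. Sign changes were limited to results near 0 that were not called. RB1 in APC against SW480 gave −0.01 with either limma scale (−0.0116 and −0.0121), −0.026 with library size without TMM and −0.0037 to 0.055 with a library left out. In CONTROL against SW480, CDK6 gave −0.0021 with the next transcript, −0.0178 and −0.0200 with limma, −0.0035 with 6 libraries, −0.034 without TMM and −0.014 to 0.026 with a library left out, and CDKN1B gave −0.0156 and −0.0164 with limma, −0.00049 with 6 libraries, −0.031 without TMM and −0.023 to 0.035. With a library left out, genes called ranged from 9449 to 10262, 9916 to 10389 and 6185 to 7299 in the 3 comparisons. With the replicate number as a block, 9993, 10297 and 7109 genes were called and the counts of the 10 genes did not move. The numbers did not pair the plates: same-numbered libraries of different groups deviated with correlations of −0.0686 to 0.106, and 2 of 9 libraries correlated best with their own number. Counts behind CDKN1C in APC, 24 to 46 per library, limit its precision.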
